A study of Mus musculus with 12 samples.

Results

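The genes described here were 9 CXC and CX3C chemokine ligands (Cxcl1, Cxcl2, Cxcl9, Cxcl10, Cxcl12, Cxcl13, Cxcl14, Cxcl16 and Cx3cl1) and the receptor Cx3cr1, read by symbol from both count tables of a mouse study of Xap5, the gene now named Fam50a. All 10 were present among the 26639 features of the white adipose tissue (WAT) table and the 22851 features of the cultured adipocyte table. They were taken by family name and symbol. RNA sequencing libraries came from 4 groups of 3. WAT WT was white fat of wild-type mice, and WAT cKO was white fat of mice with the conditional Xap5 knockout that the labels call Adiponectin-cKO, both marked D42. Adipocyte WT and Adipocyte KO were cultures marked D8, grown from precursors of subcutaneous white fat of newborn WT or cKO pups and induced with insulin, dexamethasone and IBMX, then kept in insulin. Adiponectin is made by fat cells, so a knockout driven by it is meant to leave the gene intact in the other cells of the tissue and in precursors before they differentiate. Strain, sex, the depot of the tissue samples and whether libraries came from separate animals or cultures were not stated in the labels. The p-values below therefore measure the spread between these libraries, which may be technical.

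Chemokines are small secreted proteins that guide leukocytes along gradients by binding G protein-coupled receptors. Cxcl1 and Cxcl2 attract neutrophils through Cxcr2 and are induced through NF-kappaB, while Cxcl9 and Cxcl10 attract T and NK cells through Cxcr3 and are induced by interferons. Cxcl12 is made by stromal cells and signals through Cxcr4, with Ackr3 as its scavenger, and Cxcl13 organises B cell follicles through Cxcr5. Cxcl14 is a constitutively made ligand of epithelia and fat. Cxcl16 and Cx3cl1 are made as transmembrane proteins, act as adhesion molecules and are released by the proteases Adam10 and Adam17, and their receptors are Cxcr6 and Cx3cr1, the latter carried by monocytes, macrophages and NK cells.

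Libraries held 28844370 to 33997204 counts in WAT and 10863158 to 21773610 in culture, where KO replicates 2 and 3 were the deepest. Values are given as CPM, the usual measure of a gene's reads relative to the library total, scaled within each table by edgeR's TMM factors, which correct for a few abundant genes taking a large share of the reads. These factors were 0.781 to 0.796 in WAT WT and 1.23 to 1.30 in WAT cKO, so the choice of scaling moved every WAT fold change, whereas in culture they lay between 0.970 and 1.02. With library size alone, the median log2 fold change over all genes tested in WAT was 0.80 instead of 0.12. Fam50a measured 35.3, 32.5 and 36.5 CPM in WAT WT and 23.3, 16.8 and 28.9 CPM in cKO (log2 fold change -0.60, SE 0.20, adjusted p = 0.0395), a difference that was 0.09 with library size alone and -0.19 with the trends with length and GC content taken out (adjusted p = 0.489). On leaving out 1 WT library at a time the WAT adjusted p was 0.0916, 0.0756 and 0.108 (replicates 1, 2 and 3), and without cKO replicate 1 it was 0.0847. In culture its level was 57.9, 52.0 and 45.2 CPM in WT against 46.2, 42.9 and 41.1 CPM in KO (-0.26, SE 0.12, adjusted p = 0.134). The culture difference passed with the length and GC trends taken out (-0.28, adjusted p = 0.0271) and without WT replicate 3 (-0.34, adjusted p = 0.0258).

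Cell type markers changed along with the knockout. In WAT all 8 macrophage markers rose, and their summed level was 208 to 303 CPM in WT and 1000 to 2074 CPM in cKO. Of the 7 progenitor and fibroblast markers 5 rose (1234 to 1339 CPM against 2448 to 3901 CPM), and 7 of the 8 mature adipocyte markers fell (52230 to 56000 CPM against 6733 to 16800 CPM). Of the 7 T and NK cell markers 0 passed with edgeR, DESeq2 or voom, 0 had an unadjusted p under 0.05, and 2 were higher with library size alone (20.2 to 34.2 CPM against 19.7 to 35.6 CPM). Endothelial markers fell for 5 of 6 genes and rose for 1 (928 to 1315 CPM against 493 to 737 CPM), where library size alone left 1 lower. The library WAT cKO replicate 3 stood apart in mammary and skin epithelium markers, with 549 CPM against 0.614 to 23.0 CPM in the other 5 WAT libraries. Skeletal muscle markers also varied widely within both WAT groups. They summed to 30.8, 181 and 1215 CPM in WT replicates 1, 2 and 3 and to 935, 214 and 43.1 CPM in cKO. The cultures carried adipocyte markers (16180 to 17440 CPM in WT and 22350 to 26770 CPM in KO, 5 of 7 tested higher), and they also held macrophage transcripts, at 2079 to 2318 CPM in WT and 1459 to 1689 CPM in KO (3 of 8 lower). In bulk samples such as these, fewer cells of a type and less RNA per cell cannot be told apart, and the part that these markers play in the chemokine results was not tested.

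Cxcl12 was the most abundant of the 10 genes in every group when mean levels were divided by transcript length; the plot of levels by library shows the CPM before that division. In WAT WT it stood at 20.0 ± 2.18 CPM per kilobase (SD, n = 3), a level that overlapped those of Cxcl9 (19.2 ± 6.83) and Cxcl14 (17.9 ± 6.53). Below these 3 came Cxcl10 at 5.49, Cx3cl1 at 2.60, Cxcl16 at 2.46 and Cxcl13 at 1.15 CPM per kilobase, each overlapping its neighbour. Cxcl1 (0.458), Cx3cr1 (0.196) and Cxcl2 (0.122) were lowest. The WAT table split the reads of Cxcl16 over a pair of rows, and the value above is that of the main row; with both rows Cxcl16 stood at 5.82 ± 1.59 CPM per kilobase in WT, overlapping Cxcl10, and at 14.3 ± 3.74 in cKO, overlapping Cxcl9, Cxcl10 and Cxcl14. In WAT cKO the order changed below Cxcl12 (31.1 ± 4.38 CPM per kilobase), which was then above Cxcl9 (12.2 ± 4.67), Cxcl10 (11.6 ± 5.87) and the sum of both Cxcl16 rows in every library. Cultured WT adipocytes had Cxcl12 at 38.1 ± 2.37, Cxcl16 at 12.6 ± 0.929, Cxcl14 at 12.5 ± 3.13, Cxcl10 at 5.68 and Cxcl1 at 4.35 CPM per kilobase, with Cxcl9 at only 1.22. In KO cultures Cxcl12 (28.3 ± 2.37) again lay above the next gene, Cxcl14 (14.0 ± 0.317), in every library. The tables were scaled separately, so levels in tissue and in culture are set side by side without a test.

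**Figure D1:**
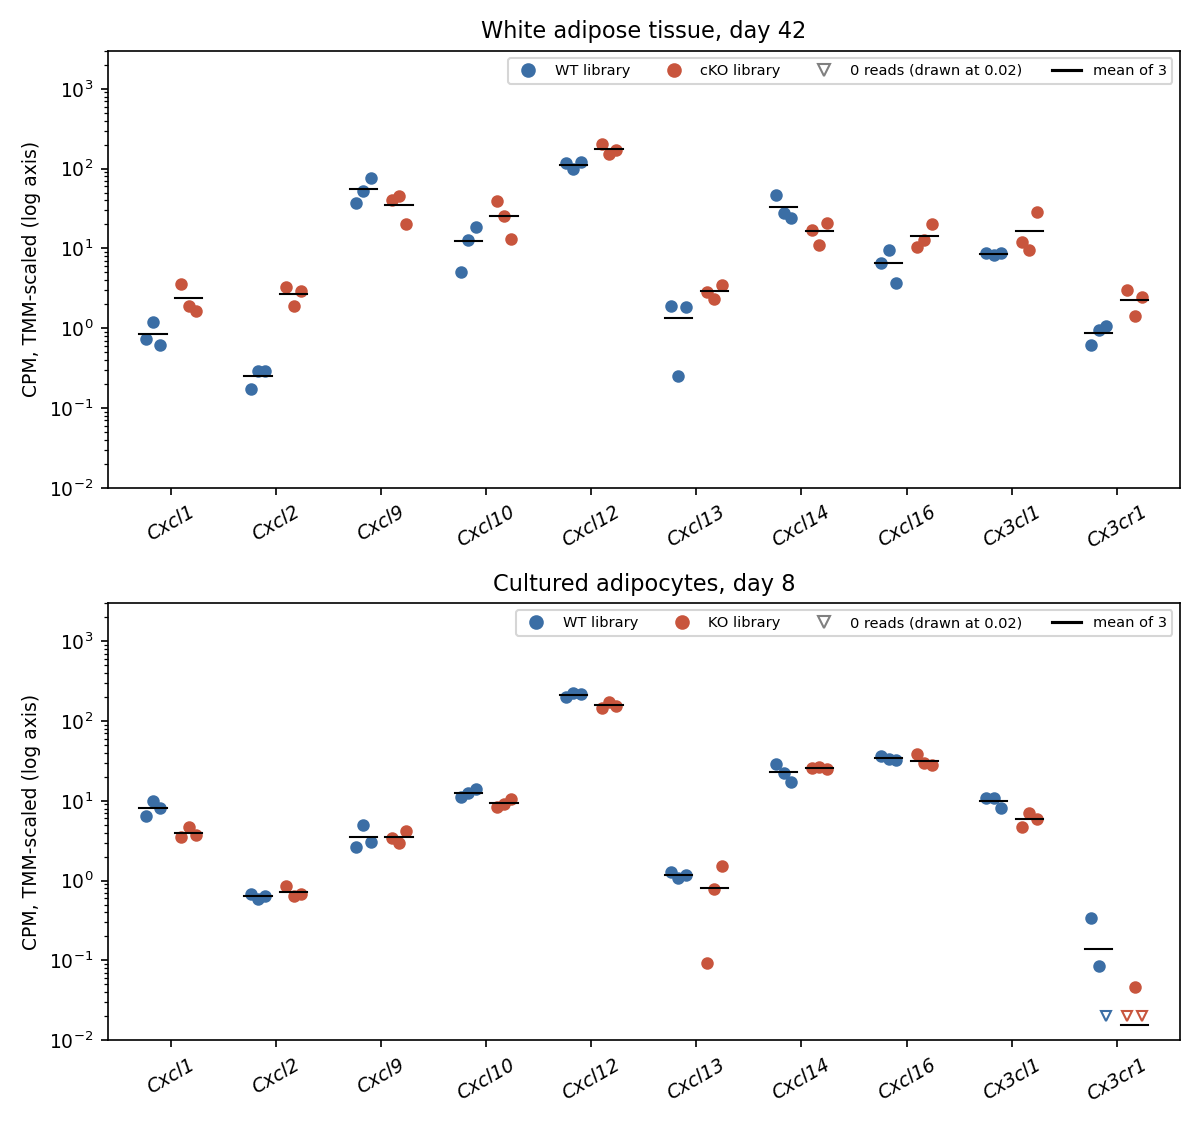
CPM (TMM-scaled, log axis) of the 10 genes in each library of white adipose tissue (upper panel) and cultured adipocytes (lower panel), with bars at the mean of 3 libraries and triangles for libraries with 0 reads. Cxcl2 in tissue shows the widest gap between WT and cKO, while in culture Cxcl1, Cxcl10, Cxcl12 and Cx3cl1 lie lower in all 3 KO libraries.

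In WAT, Cxcl1, Cxcl2, Cxcl12, Cxcl16 and Cx3cr1 rose in cKO and Cxcl14 fell, with log2 fold changes from 0.64 for Cxcl12 to 3.40 for Cxcl2 among those that rose. Cxcl9, Cxcl10, Cxcl13 and Cx3cl1 did not pass the test. All 10 genes passed the count filter, Cxcl2 only through the cKO libraries. Over the 16293 genes tested with edgeR's quasi-likelihood test at an adjusted p under 0.05, 28.2% rose and 24.2% fell, so 5 of 10 higher and 1 of 10 lower stood against a table in which 52.4% of genes were called. The 3 cKO values lay above all 3 WT values for 7 of the 10 genes (35.1% of all genes tested) and below them for 1 (29.3%). The median log2 fold change of the 10 was 1.09, against 0.12 for all genes tested. The count of genes that rose was 2 without WT replicate 1, without WT replicate 3 or without cKO replicate 1, 3 without cKO replicate 3, and 4 or 5 without either other library, and Cxcl14 lost its call in 4 of these 6 fits. DESeq2 called 6 of the 10 higher and the fit over all 4 groups 7.

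In culture 0 chemokine genes rose, by edgeR, DESeq2 or voom or at an unadjusted p under 0.05, and Cxcl1, Cxcl12 and Cx3cl1 fell in KO, by 1.03, 0.43 and 0.72 on the log2 scale. The filter kept 8 of the 10 genes, leaving out Cxcl2 and Cx3cr1. Over the 12587 genes tested, 8.94% rose and 10.6% fell (19.5% in all). All KO values lay below all WT values for 4 of the 8 genes (18.8% of all genes tested), and above them for 0 (18%). The median log2 fold change of the 8 was -0.42, against -0.02 for all genes tested. Without WT replicate 2, Cxcl1 was the only gene of the family still called.

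The knockout effect in tissue minus that in culture, tested in 1 model over all 12 libraries, passed the threshold for 8 of the 10 genes: Cxcl1, Cxcl2, Cxcl10, Cxcl12, Cxcl16, Cx3cl1 and Cx3cr1 had the higher effect in WAT and Cxcl14 the lower one. Of the 14463 genes tested for this difference 48.8% were called, 27.7% higher and 21.1% lower. The count of 7 genes with the higher effect in WAT was 4 without Adipocyte WT replicate 1 and 4 without Adipocyte KO replicate 3. The plot of effects in tissue and culture shows both for each gene.

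**Figure D2:**
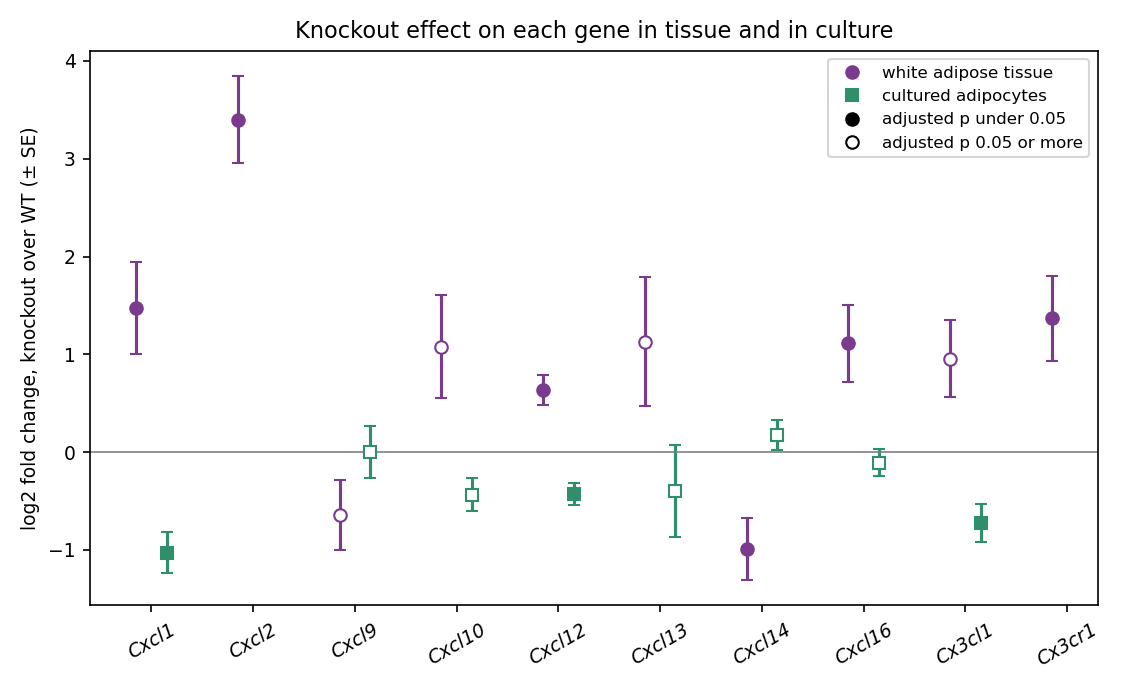
Log2 fold change, knockout over WT, with bars of ± 1 SE, for each gene in white adipose tissue (circles) and cultured adipocytes (squares), filled where the adjusted p was under 0.05. Cxcl1, Cxcl10, Cxcl12, Cxcl13, Cxcl16 and Cx3cl1 lie above 0 in tissue and below 0 in culture, of which only Cxcl1 and Cxcl12 passed in both. Cxcl2 and Cx3cr1 have no point in culture because too few reads were counted.

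Cxcl1 and Cxcl2, the neutrophil attractants, lie 10.8 kb apart on mouse chromosome 5 (GRCm38, chr5:90891245-90893121 and chr5:90903899-90905938). The 250 bases before their RefSeq starts are printed here because both genes rose in WAT, together with those of the interferon-induced neighbours Cxcl9 and Cxcl10. All are from RefSeq on GRCm38.p6, written 5′ to 3′ in the gene's direction, with matches to the NF-kappaB consensus and to the core of the interferon-stimulated response element in capitals; where matches overlap, the capitals span all of them. Cxcl1 and Cxcl2 are on the plus strand (chr5:90890995-90891244 and chr5:90903649-90903898), and Cxcl9 and Cxcl10 on the minus strand (chr5:92328080-92328329 and chr5:92348890-92349139).
Cxcl1: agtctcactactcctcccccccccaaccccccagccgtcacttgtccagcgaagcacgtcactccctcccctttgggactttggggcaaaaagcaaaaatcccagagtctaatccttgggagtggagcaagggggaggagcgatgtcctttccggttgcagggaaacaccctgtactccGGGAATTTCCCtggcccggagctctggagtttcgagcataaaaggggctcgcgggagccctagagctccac
Cxcl2: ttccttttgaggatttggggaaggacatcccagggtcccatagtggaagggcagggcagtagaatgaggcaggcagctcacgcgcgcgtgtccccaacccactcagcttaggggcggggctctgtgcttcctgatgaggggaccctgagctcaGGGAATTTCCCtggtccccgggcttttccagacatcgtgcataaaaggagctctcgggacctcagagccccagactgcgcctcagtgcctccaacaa
Cxcl9: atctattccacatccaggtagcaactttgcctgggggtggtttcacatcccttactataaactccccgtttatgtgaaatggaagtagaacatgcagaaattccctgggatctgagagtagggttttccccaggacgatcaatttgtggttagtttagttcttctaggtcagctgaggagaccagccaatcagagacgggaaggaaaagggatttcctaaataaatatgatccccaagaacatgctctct
Cxcl10: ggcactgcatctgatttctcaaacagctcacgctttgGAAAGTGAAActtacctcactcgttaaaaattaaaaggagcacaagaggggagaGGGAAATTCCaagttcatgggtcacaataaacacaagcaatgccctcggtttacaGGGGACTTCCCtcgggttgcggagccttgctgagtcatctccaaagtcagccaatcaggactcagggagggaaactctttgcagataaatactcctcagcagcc
Windows of 300 bases, from 250 before to 50 after the start, were available for 9 of the 10 genes, all except Cxcl16. Searched on both strands, the NF-kappaB consensus matched in 3 of the 9 (Cxcl1, Cxcl2 and Cxcl10) and in 8.46% of 32851 such windows of all genes, and Cxcl1 and Cxcl2 carried the same run, GGGAATTTCCC. The core of the interferon-stimulated response element matched in Cxcl10 and Cxcl14 (3.44% of all windows), TTCNNNGAA in Cxcl14 (8.3%), ACGTG in Cxcl1 (19.6%) and TATAAA in Cxcl9, Cxcl13 and Cx3cl1 (13.6%). A match describes the letters and says nothing of binding.

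Cxcl2 was the gene of the family with the highest fold change in WAT. It had 4, 7 and 7 reads in the WT libraries and 139, 77 and 128 in cKO, that is 0.174, 0.292 and 0.289 CPM against 3.31, 1.89 and 2.90 CPM. The groups were far apart, with a fitted fold of 10.6 (log2 3.40, SE 0.45, adjusted p = 0.00124) and log2 3.20 to 4.08 over the 15 alternative fits. Cxcl2 entered the test only through the cKO libraries, so its call is no more than a description of these reads. In culture Cxcl2 had 8, 7 and 8 reads in WT and 9, 14 and 14 in KO, too few for the filter. Without the filter its log2 fold change there was 0.19 (SE 0.56, adjusted p = 0.870), and the difference between both effects was 3.25 (SE 0.58, adjusted p = 0.000623).

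Cxcl1 measured 0.741, 1.21 and 0.620 CPM in WAT WT and 3.62, 1.89 and 1.65 CPM in cKO. All cKO libraries were higher, replicate 1 most of all (log2 1.47, SE 0.47, adjusted p = 0.0342). That call was lost on leaving out cKO replicate 1 (log2 1.03, adjusted p = 0.151), WT replicate 3 (0.106) or WT replicate 1 (0.0945), with limma voom (0.0538) and after taking out trends with length and GC content (0.0581). In culture the gene was lower in all KO libraries, at 6.50, 9.83 and 8.08 CPM in WT and 3.47, 4.64 and 3.70 CPM in KO, a fold of 2.04 (log2 -1.03, SE 0.21, adjusted p = 0.00192). The opposite directions differed by 2.55 on the log2 scale (SE 0.51, adjusted p = 0.00125), and this difference passed in all 20 alternatives.

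Both genes moved by unequal amounts. Per Cxcl1 read, the WAT WT libraries held 0.235, 0.241 and 0.467 Cxcl2 reads and the cKO libraries 0.914, 1.00 and 1.75, a ratio within each library that no scaling can change. The culture ratio was also higher in every KO library (0.0807 ± 0.0221 against 0.189 ± 0.0518, SD, n = 3, on 7 to 14 Cxcl2 reads), and each table gave p = 0.1 in a two-sided exact permutation test, the smallest that 3 against 3 allows. The ratios in this and later paragraphs were chosen after the values were seen. The 7 neutrophil markers summed to 1.79 to 3.10 CPM in WAT WT, where Ly6g, Mpo and Camp were at 0, and to 10.3 to 13.3 CPM in cKO, where 2 of the 3 tested were called higher (1 without any single library). Csf3r, the G-CSF receptor, made up most of that sum (7.89 to 11.6 CPM in cKO). The other gene called, S100a8, was at 0.35, 0.38 and 0.45 CPM in WT and entered the test only through the cKO libraries. S100a9 did not pass (log2 0.19, adjusted p = 0.899). The part of these transcripts in the result was not tested.

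Cxcl9 and Cxcl10, 18.6 kb apart at chr5:92321331-92328079 and chr5:92346638-92348889, did not pass the test in WAT. Cxcl9 was at 37.4, 52.4 and 76.5 CPM in WT and 40.9, 45.3 and 20.0 CPM in cKO, overlapping ranges with a log2 fold change of -0.65 (SE 0.36, adjusted p = 0.165), which was 0.02 with library size alone and passed, at -1.02 (adjusted p = 0.0475), after taking out trends with length and GC content. Cxcl10 was at 5.10, 12.8 and 18.8 CPM in WT and 39.2, 25.2 and 13.1 CPM in cKO, with cKO replicate 3 inside the WT range (1.08, SE 0.53, adjusted p = 0.124); library size alone gave 1.75 (adjusted p = 0.0232) and the fit over all 4 groups 1.12 (adjusted p = 0.0286). Spread within the groups was wide for both, and the lowest cKO library was replicate 3 in each case.

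The ratio of Cxcl10 to Cxcl9 separated the WAT libraries where neither level did. Cxcl10 reads per Cxcl9 read were 0.136, 0.244 and 0.246 in WAT WT and 0.960, 0.556 and 0.655 in cKO, so that every cKO library lay above every WT library (0.209 ± 0.0628 against 0.723 ± 0.211, SD, n = 3, two-sided exact permutation p = 0.1, the smallest possible). In culture Cxcl10 outnumbered Cxcl9 in all 6 libraries, with ratios of 3.85 ± 1.17 in WT and 2.67 ± 0.314 in KO that overlapped (exact permutation p = 0.3). The whole of Cxcl10 lies inside Art3, a gene on the opposite strand, and 133 of its 2252 exonic bases are also Art3 exon. The strand setting of the counts is not given in the sources used here, so reads of Art3 and Cxcl10 cannot be fully told apart; Art3 itself fell in WAT (213 to 245 CPM against 40.3 to 69.2 CPM, log2 -2.08, adjusted p = 0.000648).

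Levels in culture were 2.62, 4.96 and 3.01 CPM in WT and 3.38, 2.97 and 4.19 CPM in KO for Cxcl9, with a log2 difference of -0.00 (SE 0.27, adjusted p = 0.999). Cxcl10 was slightly lower in every KO library, at 11.2, 12.5 and 14.3 CPM in WT and 8.25, 9.01 and 10.7 CPM in KO, which missed the threshold (-0.43, SE 0.17, adjusted p = 0.0708). It passed in 3 of 15 alternatives (adjusted p down to 0.0111): library size alone, the replicate block, and length and GC trends taken out. The tissue effect on Cxcl10 exceeded the culture effect by 1.55 (SE 0.59, adjusted p = 0.0427), a call lost on leaving out any 1 of 9 of the 12 libraries (all except WAT WT replicate 3 and WAT cKO replicates 2 and 3, adjusted p up to 0.115), and that on Cxcl9 differed by -0.61 (SE 0.49, adjusted p = 0.325).

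The interferon gamma route, the usual inducer of this pair, did not move as a block. Of its 12 listed genes 11 were tested in WAT, where 6 rose and 1 fell, with a median log2 fold change of 0.72. Over all genes tested in WAT 28.2% rose and 24.2% fell. The 3 with the smallest p were Gbp3, an interferon-induced GTPase (1.76, adjusted p = 0.00155), the receptor chain Ifngr2 (0.96, adjusted p = 0.00193) and the kinase Jak1 (0.72, adjusted p = 0.00356). In culture 0 of 10 tested passed with edgeR, DESeq2 or voom, 2 were lower at an unadjusted p under 0.05, and the smallest p belonged to Irf8 (-0.36, adjusted p = 0.122), Ifngr2 (-0.24, adjusted p = 0.125) and Ifngr1 (0.14, adjusted p = 0.384), while Ifng itself was at 0 in all 6 culture libraries.

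Cxcl12, the stromal ligand at chr6:117168535-117181368, rose in WAT and fell in culture. Its level was 116, 98.9 and 123 CPM in WAT WT and 201, 151 and 173 CPM in cKO, with no overlap (log2 0.64, SE 0.15, adjusted p = 0.011). Without cKO replicate 1 the rise was 0.51 and missed the threshold (adjusted p = 0.0513). Cultured WT libraries had 200, 226 and 217 CPM and KO libraries 147, 174 and 156 CPM, all lower (-0.43, SE 0.11, adjusted p = 0.00839; -0.38 and adjusted p = 0.0816 without WT replicate 2). This gave a difference between both effects of 1.10 (SE 0.18, adjusted p = 0.000379), which passed in all 20 alternatives. Of the progenitor and fibroblast markers, from cells that make Cxcl12, 5 of 7 rose in WAT and 2 of 6 tested fell in culture. Among them Col1a1, a fibrillar collagen, went from 437 to 653 CPM up to 1249 to 2450 CPM in WAT. In culture Col1a1 went from 5224 to 7547 CPM down to 3611 to 4821 CPM. Col1a1 was chosen after its values were seen. Pdgfra and Pi16 had the same signs but did not pass in culture (adjusted p = 0.0663 and 0.163). Other markers went differently in WAT and culture: Dcn (log2 2.39 and 0.14), Thy1 (-0.15 and -0.40) and Dpt (-0.06 and 0.14). The part of progenitors and fibroblasts in the Cxcl12 result was not tested.

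Cxcl14, at chr13:56288643-56296811, was the only gene of the family that fell in WAT. It was at 46.3, 28.1 and 23.8 CPM in WT and 17.2, 11.1 and 21.0 CPM in cKO, where WT replicate 3 and cKO replicate 3 nearly met (log2 -0.99, SE 0.31, adjusted p = 0.0325). The call was lost with library size alone (-0.31, adjusted p = 0.438), once trends with length and GC content were taken out (-0.58, adjusted p = 0.188) and on leaving out WT replicate 1 (-0.66, adjusted p = 0.102), WT replicate 2 (0.0615), cKO replicate 2 (0.061) or cKO replicate 1 (0.068). Cultures showed 28.8, 22.0 and 17.4 CPM in WT and 25.6, 26.2 and 25.0 CPM in KO, overlapping (0.17, SE 0.15, adjusted p = 0.456). The difference between both effects was -1.13 (SE 0.38, adjusted p = 0.0263); it was -0.48 with library size alone (adjusted p = 0.311) and -0.76 once length and GC trends were taken out (adjusted p = 0.132). That call was also lost without WAT WT replicate 1 (-0.81, adjusted p = 0.0648) and without Adipocyte WT replicate 2 (0.053), WT replicate 3 (0.0724), KO replicate 1 (0.0504) or KO replicate 2 (0.0525). Mammary and skin epithelium markers summed to 23.0, 6.80 and 1.61 CPM in the WAT WT libraries and to 0.667, 0.614 and 549 CPM in cKO. Their part in the Cxcl14 result was not tested.

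Relative to Cxcl12, Cxcl14 moved in opposite directions in tissue and in culture. Cxcl14 reads per Cxcl12 read were 0.398, 0.284 and 0.194 in WAT WT and 0.0858, 0.0733 and 0.121 in cKO, all lower. In culture they were 0.144, 0.0975 and 0.0801 in WT and 0.174, 0.151 and 0.161 in KO, all higher. Each gave the smallest possible two-sided exact permutation p of 0.1, and the difference between the settings was not tested for this ratio. The plot of ratios within libraries shows these values with those of the other pairs.

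**Figure D3:**
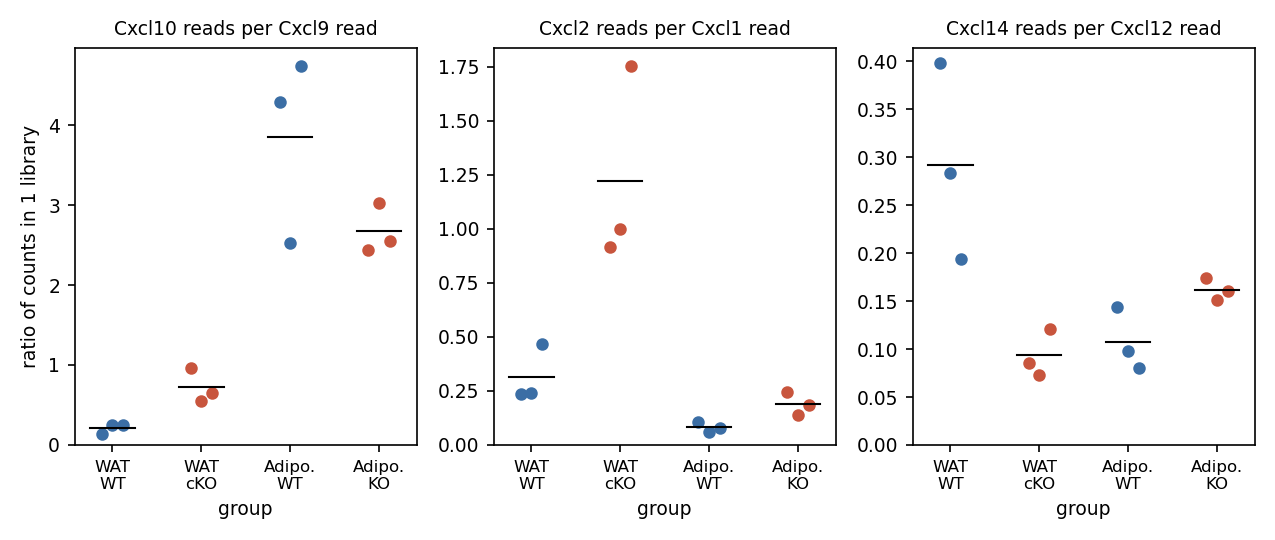
Reads of 1 chemokine per read of another in each library (points), with bars at the mean of 3 libraries, for Cxcl10 per Cxcl9, Cxcl2 per Cxcl1 and Cxcl14 per Cxcl12 in the 4 groups. WT and knockout libraries do not overlap in WAT in any panel, but the pairs were chosen after their values were seen. Of all single genes tested in WAT, 35.1% lay wholly higher and 29.3% wholly lower in cKO. Cxcl14 per Cxcl12 is lower in WAT cKO (0.0935 against 0.292) and higher in KO cultures (0.162 against 0.107).

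Cxcl13, which draws B cells (chr5:95956939-95961068), was scarce throughout. WAT WT libraries had 1.87, 0.250 and 1.86 CPM and cKO libraries 2.88, 2.33 and 3.51 CPM. All cKO values were higher, but WT replicate 2 (6 reads) lay far below the other WT libraries and the difference did not pass (log2 1.13, SE 0.66, adjusted p = 0.187). The culture values were 1.27, 1.09 and 1.19 CPM in WT and 0.0938, 0.790 and 1.51 CPM in KO, where replicate 1 had 1 read (-0.40, SE 0.47, adjusted p = 0.586). Markers of B cells and lymph node stroma summed to 2.67 to 4.13 CPM in WAT WT and 1.27 to 2.79 CPM in cKO, with 0 of 3 tested called by edgeR, DESeq2 or voom and 0 at an unadjusted p under 0.05.

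Cxcl16, one of the transmembrane ligands, at chr11:70454389-70459984, was the member with a numbered second row in the WAT table. The main row had 6.53, 9.68 and 3.72 CPM in WT and 10.3, 12.6 and 20.2 CPM in cKO (log2 1.11, SE 0.39, adjusted p = 0.0479), close to the threshold and lost with RLE factors (0.0563) and without WT replicate 1 (0.12), WT replicate 3 (0.111), cKO replicate 2 (0.0648) or cKO replicate 3 (log2 0.78, 0.131). The second row had 6.93, 3.34 and 16.9 CPM in WT and 31.7, 14.7 and 26.6 CPM in cKO (1.42, SE 0.57, adjusted p = 0.0698). Reads split unevenly between the rows: the second held between 0.345 and 4.56 reads per read of the first, whereas for Pf4, another chemokine with a second row, this ratio stayed between 0.972 and 1.02.

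Summed over both rows, Cxcl16 reached 13.5, 13.0 and 20.7 CPM in WT and 42.0, 27.3 and 46.7 CPM in cKO, with no overlap. The log2 fold change of the sum was 1.29 (adjusted p = 0.00482). Cxcl16 also shares 552 exonic bases with Zmynd15 on the other strand, which itself had 0.951 to 1.29 CPM in WT and 2.21 to 3.26 CPM in cKO. Cultured adipocytes had more stable values, 36.9, 33.0 and 32.2 CPM in WT and 38.4, 29.4 and 27.7 CPM in KO, overlapping (-0.11, SE 0.14, adjusted p = 0.617). The tissue effect was higher than the culture effect by 1.25 (SE 0.42, adjusted p = 0.0263), or 1.44 with the rows summed (adjusted p = 0.00204); the former was lost without Adipocyte WT replicate 1, KO replicate 2 or KO replicate 3 (adjusted p 0.0594 to 0.0648).

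Cx3cl1, fractalkine, at chr8:94772180-94782427, was even across the WAT WT libraries, at 8.84, 8.39 and 8.64 CPM, and uneven in cKO, at 12.2, 9.61 and 28.4 CPM. All cKO values were higher, yet the difference missed the threshold (log2 0.96, SE 0.40, adjusted p = 0.0774), and it was 0.33 (adjusted p = 0.226) without cKO replicate 3, the library with 549 CPM of epithelial markers. Without cKO replicate 2 it passed (1.21, adjusted p = 0.0247), as it did with library size alone (1.65, adjusted p = 0.0112), with DESeq2 (0.90, adjusted p = 0.0483), with the length and GC trends taken out (1.22, adjusted p = 0.0317) and in the fit over all 4 groups (adjusted p = 0.0168). In culture, where epithelial markers were at or near 0 (at most 0.195 CPM in all), Cx3cl1 fell, from 10.7, 10.8 and 8.08 CPM in WT to 4.69, 6.97 and 5.94 CPM in KO (-0.72, SE 0.19, adjusted p = 0.0115; lost without WT replicate 1, adjusted p = 0.0529, or WT replicate 2, adjusted p = 0.0771). The difference between both effects was 1.73 (SE 0.47, adjusted p = 0.00872) and 1.13 without WAT cKO replicate 3 (adjusted p = 0.00602). That library differed in other markers too, such as Kit (53.9 CPM, against 9.26 and 11.0 CPM in cKO replicates 1 and 2). The part of epithelium in the Cx3cl1 results was not tested.

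The sheddases and trimming proteases of these ligands mostly rose in WAT: 5 of 6 were higher and 1 was lower (28.2% and 24.2% of all genes tested). Mmp12, a macrophage elastase, went from 0.784, 1.96 and 4.46 CPM to 639, 207 and 338 CPM (log2 7.35, SE 0.76, adjusted p = 0.000674). Adam17, which sheds Cx3cl1 and Cxcl16, went from 22.1, 21.1 and 22.1 CPM to 58.7, 46.1 and 60.3 CPM (1.34, adjusted p = 0.000697). Mmp9, a gelatinase, fell from 26.2, 17.3 and 22.7 CPM to 4.71, 3.37 and 5.87 CPM (-2.24, adjusted p = 0.000913). In culture 2 of 5 tested were lower, Mmp9 (-1.20, adjusted p = 0.00303) and Mmp2 (-0.43, adjusted p = 0.0119), and Adam10 did not pass (-0.20, adjusted p = 0.351).

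Cx3cr1, the receptor of fractalkine, at chr9:120048683-120068296, measured 0.610, 0.960 and 1.07 CPM in WAT WT and 2.98, 1.43 and 2.45 CPM in cKO. All cKO libraries were higher (log2 1.37, SE 0.44, adjusted p = 0.0329), but the test no longer passed with voom (0.0523) or without WT replicate 1 (0.0893), WT replicate 2 (0.0806), WT replicate 3 (0.0594), cKO replicate 1 (0.132) or cKO replicate 3 (0.0765). Adgre1, the macrophage marker F4/80, rose far more, from 19.5 to 31.7 CPM to 146 to 389 CPM (log2 3.53, adjusted p = 0.000809). Per Adgre1 read, Cx3cr1 fell from 0.0283, 0.0491 and 0.0339 in WT to 0.00967, 0.00974 and 0.00629 in cKO, with no overlap (exact permutation p = 0.1, the smallest possible). Of the 6 monocyte markers 2 rose, and their sum was 82.7 to 87.1 CPM in WT and 112 to 144 CPM in cKO. The receptor was thus higher per total reads and lower per Adgre1 read. Adgre1 was chosen after its values were seen, and the size of this fall depends on the marker. The log2 fold changes of the macrophage markers ran from 1.62 for C1qa and 1.92 for Mertk to 4.30 for Cd68. Ratios of Cx3cr1 to markers other than Adgre1 were not tested.

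Cultures had 4, 1 and 0 reads of Cx3cr1 in the WT libraries and 0, 1 and 0 in KO, although Adgre1 stood at 151 to 178 CPM there. A library with 0 reads allows a level of up to 0.238 CPM for WT replicate 3, 0.281 CPM for KO replicate 1 and 0.146 CPM for KO replicate 3, from counting error alone. The difference of 4.00 between both effects (SE 1.42, adjusted p = 0.0326) rests on those 5 and 1 culture reads, and it was 2.36 (adjusted p = 0.349) without Adipocyte WT replicate 1. A difference of the receptor in culture was not detectable at this depth.

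Among the receptors of the CXC ligands, 6 of 8 were tested in WAT, where 2 rose and 1 fell (28.2% and 24.2% of all genes tested). Only 1 rose without WT replicate 1, WT replicate 2, cKO replicate 1 or cKO replicate 2, and with the replicate number as a block. Cxcr4, the Cxcl12 receptor, rose from 5.49, 5.09 and 7.52 CPM to 12.7, 10.6 and 18.6 CPM (log2 1.21, SE 0.27, adjusted p = 0.00904), while Ackr3, the scavenger of the same ligand, fell from 36.3, 40.5 and 39.0 CPM to 22.7, 22.8 and 21.9 CPM (-0.78, SE 0.11, adjusted p = 0.00153). Ligand and signalling receptor were thus higher and the scavenger lower in the same libraries; with library size alone Ackr3 was no longer called lower. Ackr1, an endothelial chemokine-binding receptor, rose from 3.14, 1.54 and 4.55 CPM to 8.93, 7.76 and 5.87 CPM (1.29, adjusted p = 0.0314). In culture 0 of 4 tested passed with edgeR, DESeq2 or voom, 2 were lower at an unadjusted p under 0.05, and Ackr3 (-0.40, adjusted p = 0.0663), Cxcr3 (-0.86, adjusted p = 0.122) and Ackr1 (-0.64, adjusted p = 0.382) had the smallest p.

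Of the 8 other chemokine ligands listed, all CXC except Xcl1, 3 were tested in WAT and 1 rose (28.2% of all genes tested rose). Pf4, a platelet and macrophage chemokine, went from 11.1, 8.22 and 12.6 CPM to 40.3, 21.5 and 37.2 CPM (log2 1.63, SE 0.28, adjusted p = 0.00294), whereas the platelet ligand Ppbp (1.17, adjusted p = 0.144) and the lymphocyte ligand Xcl1 (-0.84, adjusted p = 0.302) did not pass. Both ligands tested in culture fell, though only 1 was called lower with RLE factors and without WT replicate 1, WT replicate 2 or any single KO library, and 0 in the fit over all 4 groups: Cxcl5, a neutrophil attractant of the same receptor as Cxcl1, from 5.66, 11.2 and 10.8 CPM to 4.78, 3.62 and 3.36 CPM (-1.26, SE 0.24, adjusted p = 0.0009), and Pf4 from 117, 124 and 119 CPM to 103, 103 and 83.5 CPM (-0.32, SE 0.11, adjusted p = 0.0477). Cxcl5 was at 0 in all 3 WAT WT libraries. In culture Cxcl1 and Cxcl5 therefore fell together, and in WAT Cxcl5 was too scarce to test.

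The NF-kappaB route, which induces Cxcl1 and Cxcl2, had 3 of 11 tested genes higher and 2 lower in WAT, with a median log2 fold change of 0.41. These counts were near the shares over all genes tested in WAT, 28.2% higher and 24.2% lower. Nfkbiz, a nuclear co-activator of the pathway, rose from 3.75, 3.00 and 2.81 CPM to 11.6, 8.38 and 11.7 CPM (1.72, adjusted p = 0.00148). Nfkbia, the inhibitor that the pathway itself induces, fell by 0.52 (adjusted p = 0.0102), and Icam1, an adhesion molecule, rose by 0.91 (adjusted p = 0.0105). With library size alone 8 of the 11 were higher and 0 lower (54.2% and 8.76% of all genes tested). In culture 4 of 11 were lower (2 with DESeq2 or voom) and 0 higher, also at an unadjusted p under 0.05. Over all genes tested in culture 10.6% were lower and 8.94% higher. The subunit Rela (-0.44, adjusted p = 0.00845), the cytokine Il1a (3.89, 3.53 and 3.09 CPM against 1.22, 2.23 and 1.61 CPM, adjusted p = 0.016) and the subunit Nfkb2 (-0.38, adjusted p = 0.0452) had the smallest p, and the count was 0 without WT replicate 2 and 1 without WT replicate 1 or KO replicate 1.

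The scaling decided how many of the WAT changes were called, as the plot of WAT effects by scaling shows. With library size alone 54.2% of all genes were called higher and 8.76% lower, and Cxcl1, Cxcl2, Cxcl10, Cxcl12, Cxcl16, Cx3cl1 and Cx3cr1 were called higher and none lower. In culture, library size alone called 6.24% of genes higher and 14% lower, and Cxcl10 was then called lower with Cxcl1, Cxcl12 and Cx3cl1. In WAT, library size alone gave log2 fold changes of 1.32 for Cxcl12, 0.02 for Cxcl9 and -0.31 for Cxcl14. The all-gene median was 0.80 in that fit, so Cxcl12 lay above it and Cxcl9 and Cxcl14 below it. TMM, RLE and library size gave the same sign for every one of the 10 genes except Cxcl9.

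**Figure D4:**
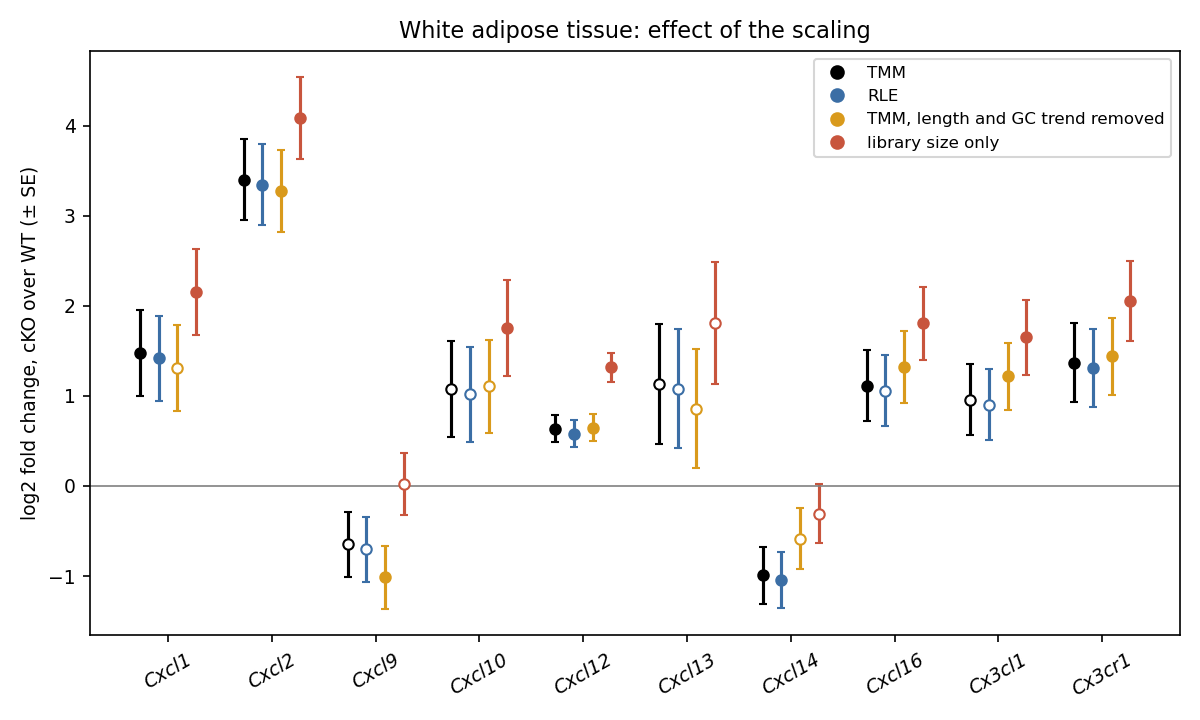
Log2 fold change of each gene in white adipose tissue, cKO over WT, with bars of ± 1 SE, under 4 ways of scaling the counts; filled points had an adjusted p under 0.05. Library size alone lies highest for every gene, and Cxcl9 changes sign (0.02 with library size alone). Cxcl2 is called under all 4, but it entered the test only through the cKO libraries.

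The genes with the most similar profile were found for the 4 members called in WAT and tested in both tables, by the root mean square difference of log2 CPM centred within each table, over 12 libraries and 12343 genes. For Cxcl12 these were Eaf1 (0.0807), Ostm1 (0.0918) and Dip2c (0.0986), all close to it in every library. Cxcl14 was nearest to Nthl1 (0.185), Acss1 (0.188) and Ism1 (0.221). Cxcl16 was nearest to Cenps (0.243), Adgrl3 (0.244) and Bcl6 (0.26), and Cxcl1 to Procr (0.305), Speg (0.31) and Lbh (0.321). The distances are larger where counts are lower, and no test was made of them.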

How the data were processed

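Per the labels' protocols, TRIzol served for extraction and an MGIEasy mRNA kit for library preparation. What the authors deposited are unnormalized counts of reads for each gene, 1 table for tissue and 1 for culture. HISAT2 2.1.0, cutadapt 1.11, FastQC 0.11.2 and GRCm38 appear in the submitters' processing notes. How reads were counted, on which annotation and with which strand setting, is not given in the sources used here. Libraries were grouped by their titles, 3 per group and 12 in all. No library repeated another, since chi-square values within a group ran from 4.97 to 221 for each degree of freedom.

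Each table was tested with edgeR 4.0.16 in R 4.3.3 (quasi-likelihood test, filterByExpr with a minimum count of 10, TMM, Benjamini-Hochberg over all genes, threshold 0.05), without a replicate block. The SE is the log2 fold change divided by the square root of F. The difference between both effects was fitted over 12 libraries and the symbols in both tables. CPM were scaled by TMM, and levels per kilobase used the longest GENCODE transcript. The fits were tested on simulated data. Alternatives were RLE factors, library size only, no filter, DESeq2 1.42.0, limma voom 3.58.1, a fit over all 4 groups, a replicate block, numbered rows summed, a length and GC trend removed (91.1% of WAT and 98% of culture genes had both) and leaving out each library.

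The genes, pathway lists and marker lists were chosen with earlier results of these data known. All 10 genes and Fam50a are named; from each pathway list the 3 genes with the smallest p per comparison are named. Names outside this rule (Art3, Zmynd15, Pf4 in the row comparison, Col1a1, Adgre1 and Csf3r) and the ratios between genes were chosen after their values were seen. Floors are 3 counts and, like the counts, cover counting error only.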

Additional observations from a re-analysis of the deposited data

Results flagged for a closer look

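For 8 of the 10 genes the knockout effect in WAT differed from that in culture by a test of the difference itself (edgeR's quasi-likelihood test over 12 libraries, Benjamini-Hochberg adjusted), beside 48.8% of the 14463 genes tested. WAT effect minus culture effect, on the log2 scale, was 2.55 for Cxcl1, 3.25 for Cxcl2, 1.55 for Cxcl10, 1.10 for Cxcl12, -1.13 for Cxcl14, 1.25 for Cxcl16, 1.73 for Cx3cl1 and 4.00 for Cx3cr1. Cxcl1 and Cxcl12 passed the test in opposite directions in tissue and in culture. The differences for Cxcl1, Cxcl2 and Cxcl12 passed in all 20 alternatives run, although Cxcl2 had only 4, 7 and 7 reads in the WAT WT libraries. The call was lost in 11 of the 20 for Cxcl10 (9 of them leaving out 1 library), 7 for Cxcl14, 6 for Cx3cr1, 4 for Cxcl16 and 1 for Cx3cl1. The value for Cx3cr1 rests on 5 WT and 1 KO reads in culture. Tissue and culture also differ in age, cell composition and depth, which cannot be told apart from the setting.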

How the results depend on the processing

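With library size alone the WAT calls over all genes were 8838 higher and 1427 lower (4595 and 3947 with TMM), 0 chemokine genes were lower, Cxcl9 was at 0.024 and Fam50a at 0.089. For the difference between effects, library size alone gave 7331 higher and 1198 lower, 0 chemokine genes lower, 0.029 for Cxcl9 and 0.35 for Fam50a; with the length and GC trend removed 0 chemokine genes were lower and Fam50a was at 0.11. The count of chemokine genes higher was 3 in WAT and 4 for the difference with limma voom. In culture, 1 fit over all 4 groups called 58 genes higher and 88 lower and 0 chemokine genes. There the log2 fold change of Cxcl9, near 0, turned to 0.0058 with RLE factors, 0.019 without the filter, 0.0039 with DESeq2, 0.035 with voom and 0.0060 in the fit over all 4 groups, and ran from -0.17 to 0.34 when 1 library was left out (above 0 without WT replicate 2, KO replicate 1 or KO replicate 2). The causes were not tested.

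Leaving out each library in turn, 2 to 5 chemokine genes were higher and 0 to 1 lower in WAT, and 1 to 3 were lower in culture, where 399 to 1715 genes in all were higher and 498 to 1665 lower. For the difference between effects 4 to 7 were higher and 0 to 1 lower. With the replicate number as a block, 2 chemokine genes were higher in WAT and 4 for the difference. In culture the block gave 1816 genes higher and 2008 lower in all, with 4 chemokine genes lower. Deviations of same-numbered libraries correlated at -0.33, 0.03 and -0.23 in WAT and 0.18, 0.03 and 0.24 in culture, and not every library was closest to its own number, so the numbers were not taken to pair the samples. Depth limits Cxcl2 and Cx3cr1 in culture.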
